A study of Homo sapiens with 12 samples.

Results

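NFE2L1 and NFE2L2, the genes of the transcription factors NRF1 and NRF2, were described together with the genes that process, inhibit or pair with these factors, across 2 carfilzomib-resistant human multiple myeloma cell cultures and their parental lines. The members were fixed by name: NFE2L1, NFE2L2 and NFE2L3, the processing enzymes DDI2 and NGLY1, the inhibitors KEAP1 and BACH1, and the small MAF partners MAFF, MAFG and MAFK. Of these 10 genes, 8 had a probe set that named them alone and were analysed, among 19775 genes in all. They were read by 18 of 54613 probe sets, and a further 4 probe sets named NFE2L2 or BACH1 together with other genes. DDI2 and MAFK were not analysed here.

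The 4 groups, each with 3 Affymetrix Human Genome U133 Plus 2.0 arrays, were KMS-34/Cfz, a derivative of KMS-34 selected in 12 nM carfilzomib, its parental line KMS-34, KMS-11/Cfz, selected in the same dose from KMS-11, and parental KMS-11. Carfilzomib blocks the proteasome, the protease that degrades ubiquitin-tagged proteins. The resistant cells had grown for 1 week without the drug when RNA was taken, whereas the parental cells had never been selected in it, and no source used here says whether a resistant culture was a single clone. Both lines are myeloma lines with a t(4;14) translocation. No source states that replicates came from separate cultures, and the p-values cover the spread among these arrays alone, which may be technical.

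NRF1, NRF2 and the NFE2L3 product NRF3 are cap'n'collar transcription factors, which bind antioxidant response elements in DNA as heterodimers with a small MAF protein. NRF1 is made at the endoplasmic reticulum, extracted by the p97 ATPase complex, stripped of its sugars by the peptide N-glycanase NGLY1 and cut by the protease DDI2; it then enters the nucleus and raises transcription of proteasome subunit genes when proteasome activity is low. NRF2 is held at a low level by KEAP1, an adaptor of the CUL3 ubiquitin ligase, and drives antioxidant and detoxifying genes, whereas BACH1 occupies the same elements as a repressor that heme removes. The small MAF proteins MAFF, MAFG and MAFK have no activation domain of their own.

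The core of the antioxidant response element, TGACNNNGC on the gene's strand or GCNNNGTCA for the opposite strand, was searched in the promoter windows of the RefSeq table, which run from 250 bases before to 50 bases after each start. Of the 10 members, 9 had a window there (16 windows in all), and the core was found in 2 of these windows, those of KEAP1 and MAFF, as against 13.3% of all 35116 windows. Both are printed because MAFF is the member with a called change and KEAP1 the member with the largest difference in change between the lines, and the GCLM window is printed as that of a target gene long known from this pathway. The capitals mark the core.

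MAFF (GRCh38.p14, chr22:38201744-38202043, plus strand): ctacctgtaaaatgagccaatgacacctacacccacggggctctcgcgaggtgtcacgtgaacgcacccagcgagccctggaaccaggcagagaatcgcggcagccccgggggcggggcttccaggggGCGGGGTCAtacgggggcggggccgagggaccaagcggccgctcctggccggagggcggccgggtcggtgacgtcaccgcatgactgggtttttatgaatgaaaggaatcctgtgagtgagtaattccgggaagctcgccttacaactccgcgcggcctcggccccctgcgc

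KEAP1 (GRCh38.p14, chr19:10502722-10503021, minus strand): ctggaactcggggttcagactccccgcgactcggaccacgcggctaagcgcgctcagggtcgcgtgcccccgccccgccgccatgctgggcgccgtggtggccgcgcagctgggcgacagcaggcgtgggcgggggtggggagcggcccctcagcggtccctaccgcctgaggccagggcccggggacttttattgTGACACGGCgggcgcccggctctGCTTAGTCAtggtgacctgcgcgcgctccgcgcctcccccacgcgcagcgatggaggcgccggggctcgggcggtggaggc

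GCLM (GRCh38.p14, chr1:93909381-93909680, minus strand): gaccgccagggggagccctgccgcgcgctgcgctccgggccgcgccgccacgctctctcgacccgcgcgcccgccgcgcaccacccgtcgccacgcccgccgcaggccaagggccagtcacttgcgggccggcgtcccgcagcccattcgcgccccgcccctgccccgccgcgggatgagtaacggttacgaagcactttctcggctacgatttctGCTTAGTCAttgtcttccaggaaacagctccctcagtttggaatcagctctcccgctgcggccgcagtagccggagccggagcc

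The MAFF site GCGGGGTCA began 122 bases upstream of the start, on the opposite strand. In the KEAP1 window, TGACACGGC began 54 bases upstream and GCTTAGTCA, on the opposite strand, 31 bases upstream. The same 9 letters as in the second KEAP1 site, GCTTAGTCA, stood 34 bases upstream in GCLM. A related site without the variable bases, TGACTCA, read on the other strand as TGAGTCA, occurred in 4.95% of all windows and in 1 of the 16 member windows, that of BACH1, 48 bases upstream as TGAGTCA. A match of letters shows no binding.

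The deposited values are log2 signals in which each probe set lies near 0, so that it places an array relative to the rest and holds no expression level. A gene's value is the mean of the probe sets that name it alone. Groups were compared with limma in 1 fit of all 12 arrays with a mean for each group, with p-values adjusted over all 19775 genes by the Benjamini-Hochberg method and a threshold of 0.05. "Rose", "fell" and "called" are used only of genes past this threshold. Fold changes are log2 fold changes of resistant over parental cells of the same line, given with 95% intervals. Over all probe sets, arrays of the same group correlated at r = 0.759 to 0.949. Their deviations from the group mean had standard deviations of 0.111 to 0.185 in KMS-34/Cfz and 0.083 to 0.089 in KMS-11/Cfz. The fit assumes the same spread in all groups. With each line fitted alone, KMS-34/Cfz had fewer calls among the members and lists below, and KMS-11/Cfz more among targets and proteasome genes. The part of unequal spread in the counts and shares of called genes was not tested. KMS-34/Cfz replicate 1 lay farthest from its group, and its deviations ran along with those of KMS-34 replicate 1 (r = 0.52) and KMS-11 replicate 3 (r = 0.47). Of 10 plasma cell markers, 1 rose and 4 fell in KMS-34/Cfz, where 10.1% of all genes were called. In KMS-11/Cfz 0 rose and 3 fell, against 3.57% of all genes called. None of 8 T and NK cell or 6 stromal markers passed the test in either derivative, 1 of 7 monocyte and 1 of 3 erythroid markers fell in KMS-34/Cfz, and none of these rose. Centred values cannot show whether a marker is present.

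Across the members, the changes that came with resistance were small. In KMS-34/Cfz, 1 of the 8 genes rose, MAFF, and 0 fell, whereas 10.1% of all genes were called there (1 member and 21.7% of all genes had an unadjusted p under 0.05). In KMS-11/Cfz, 0 of the 8 members were called by limma (3 at an unadjusted p under 0.05), as against 3.57% of all genes (13.4% at an unadjusted p under 0.05). The median change of the members was 0.09 in KMS-34/Cfz and 0.13 in KMS-11/Cfz, beside medians over all genes of -0.01 and 0.00. Resistant and parental arrays did not overlap in 3 of 8 members in KMS-34/Cfz (2 higher, 1 lower in the derivative), where 20.7% of all genes were free of overlap, and in 5 of 8 members in KMS-11/Cfz (all 5 higher), where 26.8% were. Members are not replicates of each other, and these counts are descriptions. RNA came from whole cultures, so more cells carrying a transcript and more of it per cell cannot be told apart.

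**Figure D1:**
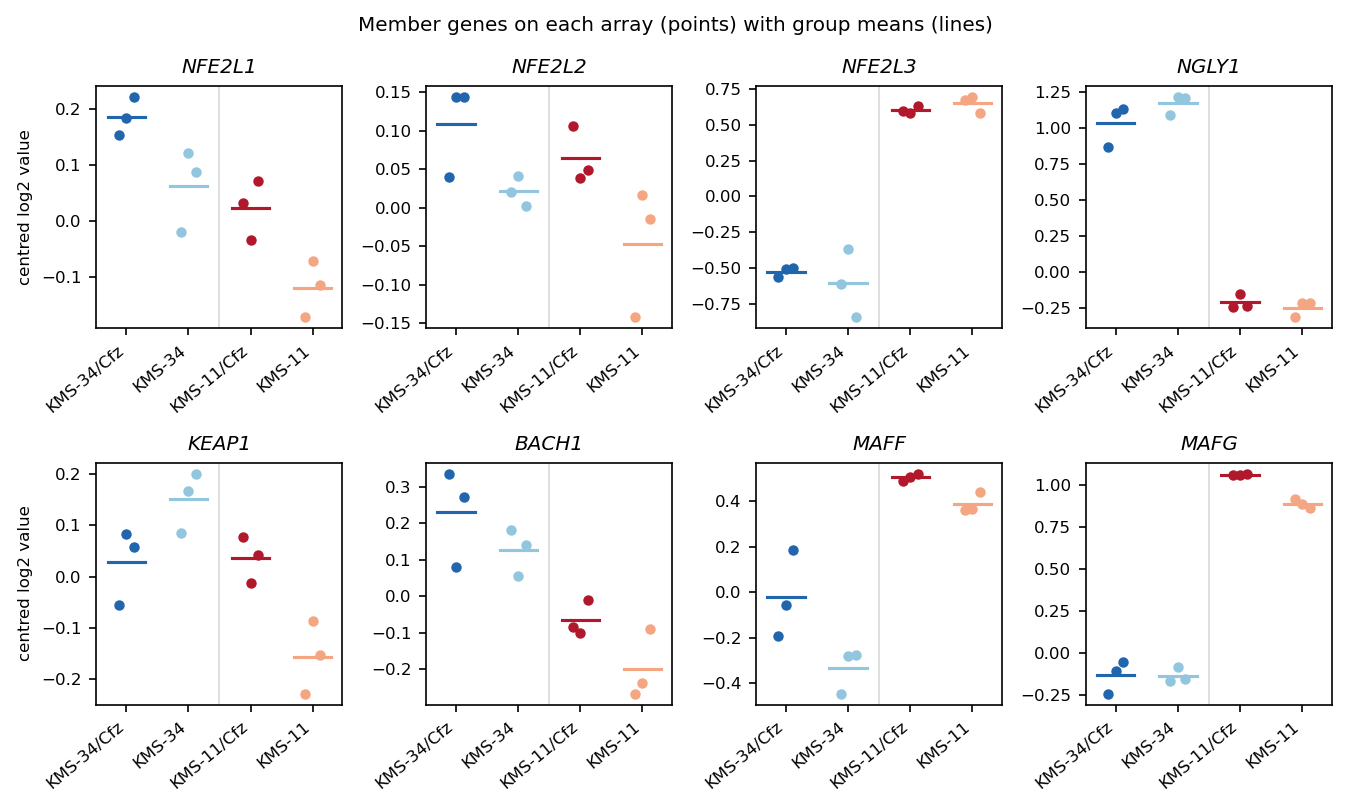
Centred log2 values (vertical axes, a separate scale in each panel) of the 8 member genes on the 3 arrays of KMS-34/Cfz, KMS-34, KMS-11/Cfz and KMS-11, with points for arrays and lines for group means. NFE2L3, MAFF and MAFG lie lower, and NGLY1 higher, in KMS-34 arrays than in KMS-11 arrays, parental and resistant alike, while the steps between resistant and parental arrays of these 4 genes are smaller.

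NFE2L1 was higher on average in both resistant derivatives, and in neither did it pass the test. Its values were 0.15, 0.18 and 0.22 in KMS-34/Cfz, against -0.02, 0.12 and 0.09 in KMS-34. No resistant array reached down to the parental range, and the log2 fold change was 0.12 (95% interval -0.01 to 0.26, adjusted p = 0.27). In KMS-11/Cfz they were 0.03, -0.04 and 0.07, against -0.17, -0.07 and -0.12 in KMS-11. Again no array overlapped, and the log2 fold change was 0.14 (0.01 to 0.27, adjusted p = 0.31). Averaged over both lines, the change was 0.13 (0.04 to 0.23, adjusted p = 0.086; 0.14 and a call, adjusted p = 0.028, with array weights), and the KMS-34 change minus the KMS-11 change was -0.02 (-0.21 to 0.17, adjusted p = 0.95). Its 3 probe sets gave 0.16, 0.13 and 0.08 in KMS-34/Cfz and 0.15, 0.13 and 0.15 in KMS-11/Cfz, and none passed the threshold over all probe sets.

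NFE2L2 moved as little. It measured 0.04, 0.14 and 0.14 in KMS-34/Cfz, against 0.02, 0.04 and 0.00 in KMS-34, and 0.11, 0.04 and 0.05 in KMS-11/Cfz, against -0.14, 0.02 and -0.01 in KMS-11. The groups touched in KMS-34, where replicate 1 of KMS-34/Cfz lay within the parental range, and did not overlap in KMS-11. The log2 fold changes were 0.09 (-0.04 to 0.22, adjusted p = 0.48) in KMS-34/Cfz and 0.11 (-0.02 to 0.24, adjusted p = 0.5) in KMS-11/Cfz. These intervals are for the mean of 3 probe sets, and that of 1567013_at alone reached up to 0.46 in KMS-34/Cfz and 0.39 in KMS-11/Cfz. Of the 3 probe sets of NFE2L2, 1567015_at was at -0.10 in KMS-34/Cfz while 201146_at and 1567013_at were at 0.15 and 0.21, and none passed the threshold over all probe sets.

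NFE2L3 encodes NRF3, the least studied of these factors. Values of -0.57, -0.51 and -0.50 in KMS-34/Cfz stood against -0.61, -0.37 and -0.84 in KMS-34, and 0.60, 0.59 and 0.64 in KMS-11/Cfz against 0.68, 0.70 and 0.58 in KMS-11. Resistant and parental arrays overlapped in each line, and the changes were 0.08 (-0.12 to 0.29, adjusted p = 0.72) in KMS-34/Cfz and -0.05 (-0.25 to 0.16, adjusted p = 0.93) in KMS-11/Cfz. What set the arrays of NFE2L3 apart was the line, as described further on.

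NGLY1, the glycanase that processes NRF1, was not called in either derivative. It measured 0.87, 1.10 and 1.13 in KMS-34/Cfz, against 1.09, 1.21 and 1.21 in KMS-34, and -0.24, -0.15 and -0.23 in KMS-11/Cfz, against -0.31, -0.21 and -0.21 in KMS-11. The arrays overlapped in both lines, with changes of -0.14 (-0.30 to 0.02, adjusted p = 0.33) in KMS-34/Cfz and 0.04 (-0.13 to 0.20, adjusted p = 0.93) in KMS-11/Cfz.

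KEAP1, the inhibitor of NRF2, was lower in resistant than in parental KMS-34 arrays and higher in resistant than in parental KMS-11 arrays. Its values were -0.06, 0.08 and 0.06 in KMS-34/Cfz, against 0.09, 0.17 and 0.20 in KMS-34. In KMS-11/Cfz they were 0.08, -0.01 and 0.04, against -0.23, -0.09 and -0.15 in KMS-11. Every resistant array was thus below every parental array in KMS-34 and above it in KMS-11, but neither change passed the test: -0.12 (-0.26 to 0.02, adjusted p = 0.31) in KMS-34/Cfz and 0.19 (0.05 to 0.33, adjusted p = 0.15) in KMS-11/Cfz. The difference between these changes was -0.31 (-0.51 to -0.12, adjusted p = 0.059), the largest of the members in size, and it too missed the threshold. With array weights the adjusted p of this difference was 0.033, at -0.28, and the KMS-11/Cfz change of 0.20 had an adjusted p = 0.02. The parental arrays enter the change of their own line, and the means of the resistant derivatives differed by -0.01 (KMS-34/Cfz minus KMS-11/Cfz), against 0.31 between the parental lines. A single probe set, 202417_at, read KEAP1. In the interaction, 0 of the 8 members were called by limma (1 at an unadjusted p under 0.05), against 6.44% of all genes (18.8% at an unadjusted p under 0.05).

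BACH1, the repressor of the same elements, was not called as a gene in either derivative, with changes of 0.10 (-0.06 to 0.27, adjusted p = 0.51) in KMS-34/Cfz and 0.13 (-0.03 to 0.30, adjusted p = 0.52) in KMS-11/Cfz. Its 3 probe sets did not move alike. 204194_at gave 0.53, 0.58 and 0.79 in KMS-34/Cfz, against 0.34, 0.45 and 0.25 in KMS-34. These arrays did not overlap, and the change was 0.29 (0.10 to 0.48, adjusted p = 0.064 over all probe sets). The probe sets 234315_at and 234938_at were at 0.03 and 0.00 there, with arrays that overlapped. In KMS-11/Cfz the 3 probe sets were at 0.10, 0.15 and 0.15, with overlapping arrays. There 0 of the 18 member probe sets were called by limma, against 1.75% of all probe sets. At an unadjusted p under 0.05 there were 2, against 5892 of all 54613. In KMS-34/Cfz 0 of the 18 were called with all arrays, against 7.05% of all probe sets. At an unadjusted p under 0.05 there were 3, against 10016 of all 54613. With KMS-34/Cfz replicate 1 left out, 3 of the 18 passed the threshold, and the share of all probe sets called in that fit is not given here.

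MAFF was the member that rose. It encodes a small MAF protein that pairs with NRF1, NRF2 and BACH1. Its values were -0.19, -0.06 and 0.18 in KMS-34/Cfz, against -0.45, -0.28 and -0.28 in KMS-34. The resistant arrays spread over a wider range without reaching down to the parental ones, with a log2 fold change of 0.31 (0.13 to 0.50, adjusted p = 0.034), or 1.24-fold. In KMS-11/Cfz it measured 0.49, 0.51 and 0.52, against 0.36, 0.37 and 0.44 in KMS-11, again without overlap, and the change of 0.12 (-0.07 to 0.30, adjusted p = 0.68) did not pass the test. The mean change of both lines was 0.22 (0.08 to 0.35, adjusted p = 0.048), and MAFF was the 1 member of 8 called in that comparison, against 7.85% of all genes. Between the lines, its changes differed by 0.20 (adjusted p = 0.44).

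The call of MAFF in KMS-34/Cfz was close to the threshold. It was kept at 0.40 (adjusted p = 0.0056) without KMS-34/Cfz replicate 1 and at 0.34 (adjusted p = 0.02) without the 3 arrays that deviated together. It ended with KMS-34 fitted alone (0.31, adjusted p = 0.17), and likewise on omitting KMS-34/Cfz replicate 2 (0.33, adjusted p = 0.072) or replicate 3 (0.21, adjusted p = 0.11), or KMS-34 replicate 1 (0.26, adjusted p = 0.13), replicate 2 (0.34, adjusted p = 0.053) or replicate 3 (0.34, adjusted p = 0.055). Leaving out any array of KMS-11/Cfz, which enters only the shared spread and the adjustment, or KMS-11 replicate 1, gave adjusted p-values from 0.05 to 0.052 and no call. The call for the mean of both lines ended on leaving out any array but KMS-34/Cfz replicate 1. Of the 10 plasma cell markers, 4 fell and 1 rose in the same derivative, where 10.1% of all genes were called. Their part in the MAFF value was not tested.

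Neither probe set of MAFF passed the threshold on its own. 36711_at gave -0.44, -0.06 and 0.40 in KMS-34/Cfz, against -0.84, -0.32 and -0.32 in KMS-34, values that overlapped, with a change of 0.46 (0.08 to 0.83, adjusted p = 0.16). 205193_at gave 0.05, -0.05 and -0.03, against -0.05, -0.25 and -0.23, which did not overlap, with a change of 0.17 (-0.02 to 0.36, adjusted p = 0.34). In KMS-11/Cfz these probe sets were at 0.26 and -0.03, so that 36711_at was the one above 0.

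**Figure D2:**
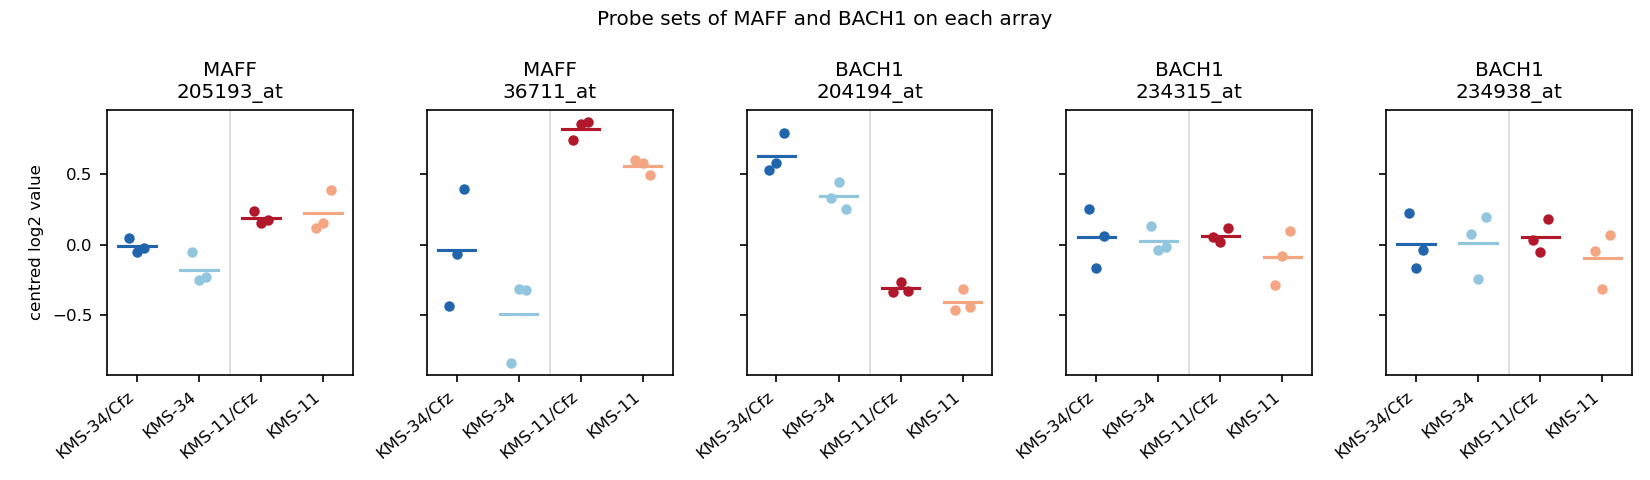
Centred log2 values (vertical axis, shared by all panels) of the 2 probe sets of MAFF and the 3 of BACH1 on each array of KMS-34/Cfz, KMS-34, KMS-11/Cfz and KMS-11, with points for arrays and lines for group means. 36711_at of MAFF and 204194_at of BACH1 separate the lines widely, whereas 234315_at and 234938_at of BACH1 stay near 0 in all 4 groups.

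MAFG, another small MAF partner, was not called in either derivative. It measured -0.24, -0.11 and -0.05 in KMS-34/Cfz, against -0.16, -0.09 and -0.16 in KMS-34, with overlapping arrays and a change of 0.00 (-0.13 to 0.13, adjusted p = 0.99). In KMS-11/Cfz it measured 1.06, 1.06 and 1.07, against 0.91, 0.88 and 0.86 in KMS-11. These arrays lay apart with little spread, and the change was 0.17 (0.04 to 0.31, adjusted p = 0.18). Array weights gave an adjusted p = 0.019 for this change. Between the lines, the changes of MAFG differed by -0.17 (adjusted p = 0.31).

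**Figure D3:**
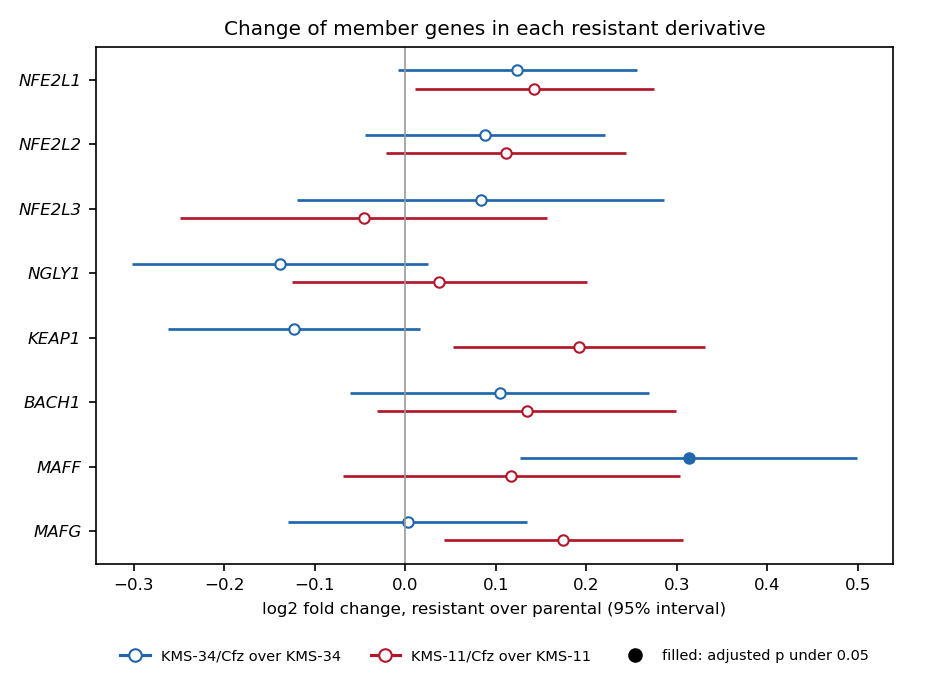
Log2 fold changes of resistant over parental cells (horizontal axis) with 95% intervals for the 8 member genes, KMS-34/Cfz above KMS-11/Cfz for each gene, filled where the adjusted p was under 0.05. The filled point is MAFF in KMS-34/Cfz, at 0.31, and KEAP1 lies at -0.12 in KMS-34/Cfz and 0.19 in KMS-11/Cfz.

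All members but NFE2L2 differed between the parental lines by more, in size, than they changed in either derivative, NFE2L1 only slightly so, and these sizes were not tested against each other. Between KMS-34 and KMS-11, 7 of the 8 members were called, 4 higher and 3 lower in KMS-34, where 42.1% of all genes were called. NGLY1 was 2.67-fold higher in KMS-34 than in KMS-11, at a log2 difference of 1.42 (1.26 to 1.58, adjusted p = 2.1e-09). NFE2L3 was lower in KMS-34, at -1.26 (-1.46 to -1.06, adjusted p = 6.9e-08), or 0.417 of its KMS-11 signal. Both small MAF genes were lower in KMS-34 too, MAFG at -1.02 (adjusted p = 7.1e-09) and MAFF at -0.73 (adjusted p = 7.7e-06). The inhibitors were higher in KMS-34, BACH1 at 0.32 (adjusted p = 0.003; no call with the median of its probe sets, 0.28, adjusted p = 0.083) and KEAP1 at 0.31 (adjusted p = 0.0013), as was NFE2L1 at 0.18 (0.05 to 0.31, adjusted p = 0.026). No arrays of these 7 genes overlapped between the parental lines, where 50.1% of all genes had no overlap. NFE2L2, at 0.07 (-0.06 to 0.20, adjusted p = 0.44), was the member that did not pass the test, and its arrays overlapped.

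The larger differences between the lines were present after selection too. Between the resistant derivatives, KMS-34/Cfz minus KMS-11/Cfz, the means differed by 1.24 for NGLY1, -1.13 for NFE2L3, -1.19 for MAFG, -0.53 for MAFF, 0.30 for BACH1, 0.16 for NFE2L1 and 0.04 for NFE2L2, given without a test. The exception was KEAP1, at -0.01. The call of NFE2L1 between the parental lines was weak: it ended without KMS-34 replicate 2 (0.15, adjusted p = 0.09) or replicate 3 (0.17, adjusted p = 0.071) and without KMS-11 replicate 1 (0.16, adjusted p = 0.11) or replicate 3 (0.19, adjusted p = 0.061). None of its 3 probe sets was called over all probe sets, at 0.18, 0.15 and 0.22.

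For NGLY1, NFE2L3 and MAFG, each probe set gave the difference between the parental lines. In NGLY1 they were at 1.68 (adjusted p = 9.3e-09) and 1.16 (adjusted p = 1.4e-08), in NFE2L3 at -0.98 (adjusted p = 2.2e-07) and -1.54 (adjusted p = 1.5e-07), and in MAFG at -1.14 (adjusted p = 3.3e-08) and -0.91 (adjusted p = 5.1e-07). The MAFF probe sets ran the same way at unequal size, -1.05 (adjusted p = 1.9e-04) for 36711_at and -0.40 (adjusted p = 0.002) for 205193_at. The line difference of BACH1 was that of 204194_at, at 0.75 (adjusted p = 6.1e-06), while 234315_at and 234938_at were at 0.11 (adjusted p = 0.53) and 0.11 (adjusted p = 0.63). Of the 3 probe sets that name BACH1 with GRIK1-AS2, a long non-coding RNA gene, 210818_s_at was at 0.65 (adjusted p = 4.8e-04) and the other two at 0.06 and 0.13. A probe set that names NFE2L2 together with CSNK2A1, a casein kinase gene, was at -0.50 (adjusted p = 2.3e-04), against 0.05 to 0.09 for those of NFE2L2 alone, and which of the genes it read cannot be told apart here. In all, 10 of 18 member probe sets were called between the parental lines, 4 higher and 6 lower in KMS-34, against 34.8% of all probe sets.

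**Figure D4:**
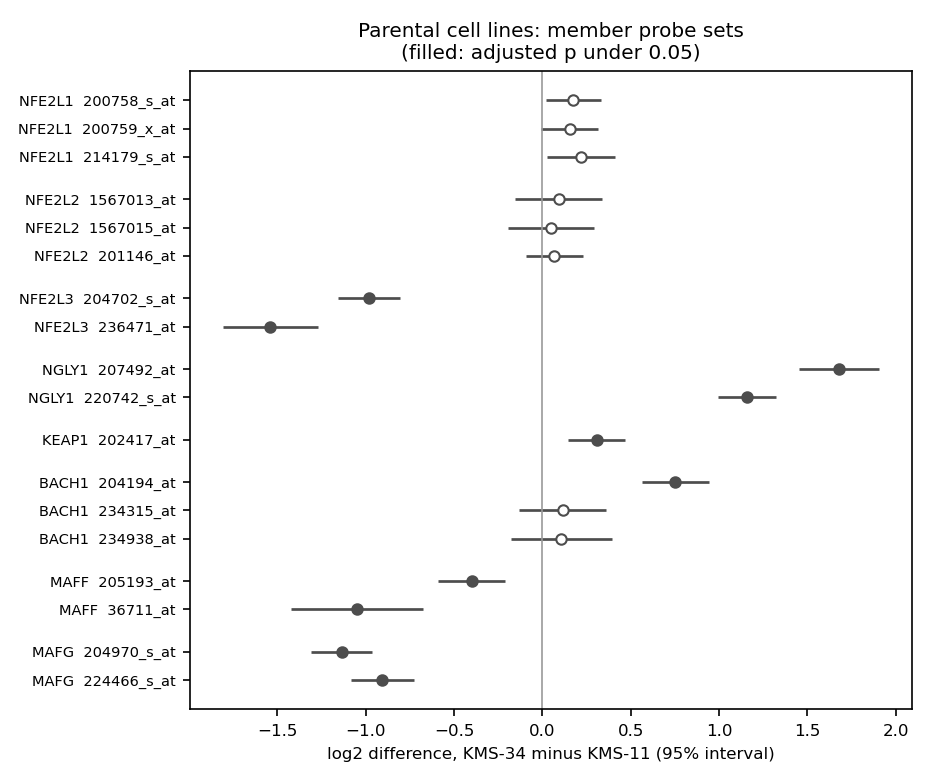
Log2 differences of parental KMS-34 minus parental KMS-11 (horizontal axis) with 95% intervals for the 18 probe sets that name 1 member alone, filled where the adjusted p over all probe sets was under 0.05. The probe sets of NGLY1 lie on the right, those of NFE2L3, MAFF and MAFG on the left, and of the 3 of BACH1 only 204194_at is filled.

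Other genes that act on these factors were taken from a list of 35, of which 29 were analysed. KMS-34/Cfz had 3 rises and 1 fall among them, with a median change of 0.00, where 10.1% of all genes were called. KMS-11/Cfz had 4 rises and 0 falls, with a median of 0.02, where 3.57% of all genes were called. The 4 that rose in KMS-11/Cfz were SQSTM1, whose product sequesters KEAP1, and 3 parts of the p97 complex that extracts NRF1 from the endoplasmic reticulum: the ATPase VCP and its cofactors UFD1 and NPLOC4. VCP, like MAF below, was added after its values were seen, to name the calls in full. SQSTM1 was at 0.14 (adjusted p = 0.27) in KMS-34/Cfz, and its rise in KMS-11/Cfz was 0.40 (adjusted p = 0.0043). With the probe set of largest variance that rise was 0.70. The difference between the lines, -0.26 (adjusted p = 0.14), did not pass the test, but did with array weights (-0.27, adjusted p = 0.036) and on omitting KMS-34/Cfz replicate 3 (-0.33, adjusted p = 0.042).

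The changes of NPLOC4, UFD1 and VCP differed between the lines. NPLOC4 and UFD1 were named for large called changes in KMS-11/Cfz, and VCP after its values were seen. That choice favours a line difference of this sign. NPLOC4 measured -0.41, -0.22 and -0.15 in KMS-34/Cfz, against -0.13, -0.07 and 0.01 in KMS-34, and 0.57, 0.51 and 0.58 in KMS-11/Cfz, against 0.18, 0.24 and 0.12 in KMS-11. The resistant arrays were the lower ones in KMS-34/Cfz, without a call (-0.20, adjusted p = 0.11), and the higher ones in KMS-11/Cfz (0.38, adjusted p = 0.011), with no overlap in either, and the difference of the changes was -0.58 (adjusted p = 0.0045). UFD1 was at 0.01 (adjusted p = 0.98) in KMS-34/Cfz, and in KMS-11/Cfz it rose by 0.36 (adjusted p = 0.0055), so that the lines differed by -0.35 (adjusted p = 0.032). VCP was at -0.05 in KMS-34/Cfz, and its rise in KMS-11/Cfz was 0.34 (adjusted p = 0.0049), with a line difference of -0.39 (adjusted p = 0.013). The KMS-11/Cfz call of NPLOC4 ended without KMS-11/Cfz replicate 1 (0.37, adjusted p = 0.058) or replicate 3 (0.36, adjusted p = 0.057) or KMS-11 replicate 3 (0.35, adjusted p = 0.057).

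In KMS-34/Cfz the called regulators were other genes. BACH2, a lymphoid relative of BACH1, measured 1.36, 1.56 and 1.33 in KMS-34/Cfz, against 0.56, 0.83 and 0.72 in KMS-34. It rose by 0.72 (adjusted p = 9.7e-05) there and was at 0.21 (adjusted p = 0.25) in KMS-11/Cfz, with a difference of 0.51 (adjusted p = 0.018). RXRA, a nuclear receptor that can bind NRF2 and lower its activity, rose by 0.38 (adjusted p = 0.011) in KMS-34/Cfz and was at 0.23 (adjusted p = 0.2) in KMS-11/Cfz. With KMS-34 fitted alone its adjusted p was 0.065, and array weights gave a call in KMS-11/Cfz (adjusted p = 0.035). FBXW7, a ubiquitin ligase subunit that marks NRF1 for degradation, fell by 0.47 (adjusted p = 0.0022) in KMS-34/Cfz and was at 0.04 (adjusted p = 0.93) in KMS-11/Cfz, with a difference of -0.50 (adjusted p = 0.017). The probe set of largest variance ended both FBXW7 calls, with the fall at -0.27 (adjusted p = 0.15) and the difference at -0.40 (adjusted p = 0.17). MAF, a large MAF factor, rose by 0.31 (adjusted p = 0.032) in KMS-34/Cfz and was at -0.17 in KMS-11/Cfz, where the median of its probe sets gave -0.36 with a call (adjusted p = 0.04). The rise depended on the probe sets used. The one of largest variance gave 0.096 (adjusted p = 0.79) in KMS-34/Cfz and a line difference of 0.17 (adjusted p = 0.73), both without a call. With KMS-34 fitted alone, MAF was not called either (adjusted p = 0.16). The KMS-34/Cfz call of MAF was lost on omitting KMS-34/Cfz replicate 2 (0.30, adjusted p = 0.1) or replicate 3 (0.24, adjusted p = 0.12), KMS-34 replicate 1 (0.28, adjusted p = 0.11) or replicate 3 (0.27, adjusted p = 0.12), or KMS-11/Cfz replicate 3 (0.31, adjusted p = 0.05).

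Of 36 target genes of NRF2 and BACH1, 34 were analysed. Calls in KMS-34/Cfz were 3 rises and 1 fall, with a median change of -0.01, against 10.1% of all genes called. Those in KMS-11/Cfz were 7 rises and 1 fall, with a median of 0.10, against 3.57% of all genes called. BLVRB, a biliverdin reductase of heme breakdown, rose in both: it measured 0.49, 0.63 and 0.81 in KMS-34/Cfz, against 0.32, 0.23 and 0.43 in KMS-34, and -0.06, -0.01 and -0.06 in KMS-11/Cfz, against -2.01, -1.89 and -1.85 in KMS-11. The low arrays of BLVRB were those of parental KMS-11, and the change was 0.31 (adjusted p = 0.028) in KMS-34/Cfz, against the larger KMS-11/Cfz one of 1.87 (adjusted p = 6.9e-08), which gave a line difference of -1.56 (adjusted p = 5.7e-06). The smaller call was lost on omitting KMS-34/Cfz replicate 2 (0.32, adjusted p = 0.075) or replicate 3 (0.23, adjusted p = 0.1) or KMS-34 replicate 1 (0.31, adjusted p = 0.074) or replicate 2 (0.26, adjusted p = 0.1). It was lost with KMS-34 fitted alone too (adjusted p = 0.14).

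The other named targets were called in 1 derivative each with all arrays in the fit. In KMS-11/Cfz, TALDO1, an enzyme of the pentose phosphate pathway, rose by 0.66 (adjusted p = 2.7e-05), and OSGIN1, an oxidative stress response gene, by 0.58 (adjusted p = 0.015). They were at -0.12 and -0.11 in KMS-34/Cfz, and the differences between the lines were -0.78 (adjusted p = 9.6e-05) and -0.69 (adjusted p = 0.026). Both were named for their called changes in KMS-11/Cfz, which favours a line difference of this sign. The OSGIN1 call ended without KMS-11/Cfz replicate 1 (0.57, adjusted p = 0.062) or replicate 2 (0.55, adjusted p = 0.067) and without KMS-11 replicate 1 (0.54, adjusted p = 0.072) or replicate 3 (0.55, adjusted p = 0.063).

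GCLM, the modifier subunit of glutamate-cysteine ligase, was named for its promoter, after its values were seen. It measured 0.05, -0.05 and -0.08 in KMS-34/Cfz, against 0.07, 0.22 and -0.18 in KMS-34, with overlap, and 0.55, 0.60 and 0.57 in KMS-11/Cfz, against 0.19, 0.05 and -0.07 in KMS-11, without overlap. Its change was -0.06 in KMS-34/Cfz, and its KMS-11/Cfz rise was 0.51 (adjusted p = 0.008), with a difference of -0.57 (adjusted p = 0.021). NQO1, a quinone reductase often used as a readout of NRF2 and chosen here after its values were seen, was at 0.15 in KMS-34/Cfz and had a KMS-11/Cfz rise of 0.48 (adjusted p = 0.0043). Without KMS-34/Cfz replicate 1, NQO1 was called in that derivative too, at 0.24 (adjusted p = 0.049). The probe set of largest variance ended the KMS-11/Cfz calls of both genes, with GCLM at 0.50 (adjusted p = 0.059) and NQO1 at 0.54 (adjusted p = 0.075). GCLM and NQO1 are among the 7 of 34 targets that rose in KMS-11/Cfz, so they do not stand for the list. There 1 target fell and most were not called.

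As in KMS-11/Cfz, where 1 of the 8 called targets fell, the target calls in KMS-34/Cfz went in both directions. SLC7A11, the cystine transporter subunit, rose by 0.45 (adjusted p = 0.0013) there and was at -0.13 (adjusted p = 0.48) in KMS-11/Cfz, with a difference of 0.58 (adjusted p = 0.0038). CBR3, a carbonyl reductase, rose by 0.62 (adjusted p = 0.017) in KMS-34/Cfz and was at 0.51 (adjusted p = 0.087) in KMS-11/Cfz. The KMS-11/Cfz value was called with that line fitted alone (adjusted p = 0.01), with array weights (adjusted p = 0.0071) and on omitting replicate 1 (adjusted p = 0.029) or replicate 3 (adjusted p = 0.026) of KMS-34/Cfz. EPHX1, the microsomal epoxide hydrolase, measured -0.03, -0.21 and -0.14 in KMS-34/Cfz, against 0.44, 0.86 and 0.73 in KMS-34. These arrays lay well apart and the change was -0.81 (adjusted p = 1.6e-04), while in KMS-11/Cfz it was at 0.27 (adjusted p = 0.2, but 0.042 with that line fitted alone and 0.03 with array weights), with a difference of -1.07 (adjusted p = 4.8e-04). The KMS-34/Cfz call of CBR3 was lost on omitting KMS-34/Cfz replicate 3 (0.44, adjusted p = 0.053) or KMS-34 replicate 1 (0.53, adjusted p = 0.072) or replicate 2 (0.61, adjusted p = 0.05). It was lost with KMS-34 fitted alone too (adjusted p = 0.067).

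The proteasome genes, the targets of NRF1, were represented by 38 of 42 listed. There were 3 rises and 2 falls in KMS-34/Cfz, at a median change of 0.06, where 10.1% of all genes were called. KMS-11/Cfz had 13 rises and 0 falls, at a median of 0.21, where 3.57% of all genes were called. The subunits PSMC2 (0.09 and 0.53), PSMB6 (-0.04 and 0.37) and PSMD1 (-0.08 and 0.36) were named for the largest called changes in KMS-11/Cfz. That choice favours a line difference of this sign. Their changes differed between the lines by -0.44, -0.41 and -0.43 (adjusted p = 0.012, 0.013 and 0.012). In the interaction, 7 of the 38 proteasome genes were called, against 6.44% of all genes. The change of NFE2L1 itself was 0.12 in KMS-34/Cfz and 0.14 in KMS-11/Cfz, a difference of -0.02. PSMD2, a cap subunit, moved in opposite directions, at -0.23 (adjusted p = 0.015) and 0.30 (adjusted p = 0.0078), a difference of -0.53 (adjusted p = 0.0011). Its KMS-34/Cfz call was lost on omitting replicate 2 of KMS-34/Cfz (adjusted p = 0.0502) and with that line alone (adjusted p = 0.17), and its KMS-11/Cfz call on omitting replicate 1 of KMS-11/Cfz (0.28, adjusted p = 0.052). In KMS-34/Cfz the activator PSME4 rose by 0.40 (adjusted p = 0.0074) and the cap assembly factor PSMD10 by 0.26 (adjusted p = 0.011), and PSMB4 of the core fell by 0.27 (adjusted p = 0.022), with values of 0.15, 0.05 and 0.06 in KMS-11/Cfz. The PSMB4 value there depended on the probe sets used, as the one of largest variance gave 0.36 (adjusted p = 0.021) and their median 0.23 (adjusted p = 0.048), both called, and its KMS-34/Cfz fall was no longer called on omitting replicate 2 of KMS-34/Cfz (adjusted p = 0.065) or replicate 2 (adjusted p = 0.054) or 3 (adjusted p = 0.071) of KMS-34. The PSMD10 call was lost on omitting replicate 2 of KMS-34/Cfz (adjusted p = 0.054). In a fit of KMS-34 alone, neither PSME4 (adjusted p = 0.055) nor PSMD10 (adjusted p = 0.12) nor PSMB4 (adjusted p = 0.16) was called. Leaving out any array of KMS-11/Cfz or KMS-11 lowered the count of 13 to between 3 and 8, and leaving out KMS-34/Cfz replicate 1 raised the count of 5 to 9, while replicate 2 lowered it to 1 and KMS-34 replicate 3 to 3.

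**Figure D5:**
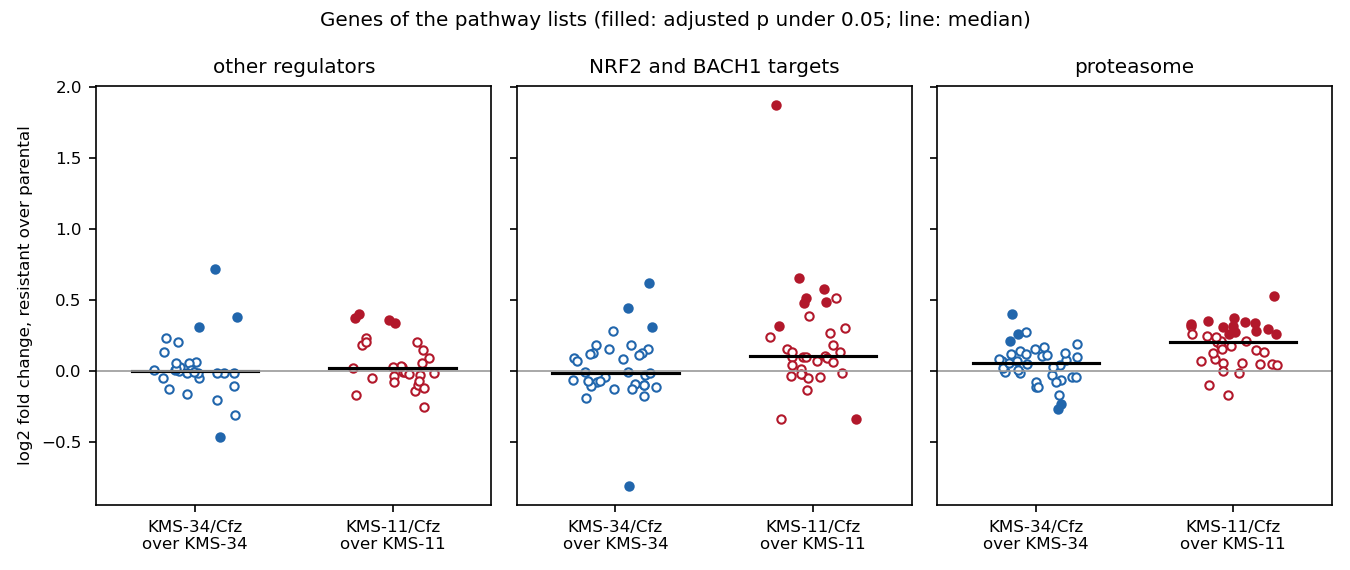
Log2 fold changes of resistant over parental cells (vertical axis) for the genes of 3 lists, KMS-34/Cfz beside KMS-11/Cfz in each panel, with filled points for an adjusted p under 0.05 and lines for medians. The proteasome median is 0.06 in KMS-34/Cfz and 0.21 in KMS-11/Cfz, and the highest point, at 1.87, is BLVRB in KMS-11/Cfz.

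The genes whose values ran most like those of NFE2L1 over the 12 arrays, by Pearson's r, were ZNF585A (r = 0.95), RPA1 (r = 0.948) and CDKN2D (r = 0.948). Those most like NFE2L2 were GSS (r = 0.915), which encodes glutathione synthetase, ORC1 (r = 0.902) and ARPC1B (r = 0.899). The arrays fall into 2 lines and share their scaling, so these values describe likeness over these arrays only.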

How the data were processed

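RNA of the 4 groups was measured on 12 Affymetrix arrays, 3 for each group. The authors ran RMA and deposited the resulting log2 values per probe set (54613, from -7.75 to 8.64). The values are centred: 99.99% of the probe sets have 3 to 9 of their 12 values below 0. The centre is not stated and the signal level is lost, so differences between arrays can be tested and dim probe sets cannot be filtered. The number of arrays limits the precision. The labels give 4% serum and the methods 10%, for all groups alike.

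The platform annotation named 1 gene for 41091 probe sets, several for 1801 and none for 11721. Probe sets of a gene were averaged (10523 genes have more than 1). Group means were fitted to all 12 arrays with limma 3.58.1 in R 4.3.3, through lmFit, contrasts.fit and eBayes. Contrasts were resistant against parental cells in each line, their difference (KMS-34 change minus KMS-11 change), their mean, and KMS-34 against KMS-11. P-values are two-sided, with Benjamini-Hochberg adjustment over all genes or all probe sets. Contrasts within a line share its parental arrays with the comparison of the parental lines. The fit was tested on simulated data with independent noise on each array and the same spread in all groups. The planted changes were larger than those of the members on selection. That test thus does not cover arrays that deviate together, unequal spread or changes as small as these.

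Named were all members, from each other list and line up to 3 genes with the largest called change and any called in both lines, and 3 genes most like NFE2L1 and NFE2L2. VCP, MAF, GCLM and NQO1 were added after their values were seen. The members and lists were chosen with earlier results of these data known. Alternatives were a replicate block, each line alone, aligned medians or means of the middle 80% of values, array weights, other gene summaries, a threshold of 0.01 and each array left out. After the data were seen, the joint omission of 3 arrays and the use of probe sets naming several genes were added. Promoter sequences are those of RefSeq (GRCh38.p14).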

Additional observations from a re-analysis of the deposited data

Results flagged for a closer look

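The changes on selection differed between the lines, by the interaction term of limma adjusted over all genes, in 7 other regulators, 8 targets and 7 proteasome genes, and in 0 of the 8 members, as against 6.44% of all genes. The 16 of these that the text names are given here. They were named for called changes within a line or after their values were seen, which favours a difference between the lines. Their signs thus do not stand for the whole lists. Called differences there were 3 positive and 4 negative in the other regulators, 2 and 6 in the targets, and 0 and 7 in the proteasome genes. Each value is the KMS-34 change minus the KMS-11 change on the log2 scale. The difference was negative, with the KMS-11/Cfz change the higher one, for the p97 complex genes NPLOC4 (-0.58), UFD1 (-0.35) and VCP (-0.39), for FBXW7 (-0.50), for the target genes BLVRB (-1.56), EPHX1 (-1.07), TALDO1 (-0.78), OSGIN1 (-0.69) and GCLM (-0.57), and for the proteasome genes PSMD2 (-0.53), PSMC2 (-0.44), PSMD1 (-0.43) and PSMB6 (-0.41). It was positive for SLC7A11 (0.58), BACH2 (0.51) and MAF (0.48). The difference lost its call under 12 of 21 alternatives for UFD1, 11 for MAF, 9 for GCLM and 6 for OSGIN1.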

How the results depend on the processing

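Over 2351 values of single genes under the alternatives, 2159 kept their direction and side of the threshold, 135 lost a call, 26 gained one and 31 changed sign, all of these last without a call. A filter on dim probe sets was not run, as the values hold no level.

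Counts of calls moved as follows. With each line fitted alone, KMS-34/Cfz had 0 members, 2 other regulators, 2 targets and 0 proteasome genes, and KMS-11/Cfz 15 targets and 20 proteasome genes. Array weights gave KMS-11/Cfz 2 members, 10 other regulators, 15 targets and 23 proteasome genes, KMS-34/Cfz 2 member probe sets, the interaction 1 member, and the mean of both lines 2 members and 3 probe sets. With the probe set of largest variance, KMS-34/Cfz had 0 members and 3 proteasome genes, KMS-11/Cfz 5 targets, and the mean of both lines 0 members; aligned medians, aligned means of the middle 80% of values and the median of a gene's probe sets also gave 0 members in that mean. At an adjusted p under 0.01, KMS-34/Cfz had 0 members, 2 other regulators, 2 targets and 1 proteasome gene, KMS-11/Cfz 4 proteasome genes, and the mean of both lines 0 members. Without the 3 arrays that deviated together, KMS-34/Cfz and the mean of both lines had 1 member probe set each.

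Leaving out 1 array gave in KMS-34/Cfz 0 to 1 members, 0 to 3 member probe sets, 3 to 6 other regulators, 2 to 6 targets and 1 to 9 proteasome genes. In KMS-11/Cfz it gave 0 members and probe sets, 3 to 5 other regulators, 6 to 10 targets and 3 to 18 proteasome genes. It gave 0 to 1 members and 0 to 3 probe sets in the mean of both lines, 0 in the interaction, and 6 to 7 members and 10 to 11 probe sets between the parental lines.

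Replicate numbers are shared by the groups, but deviations of same-numbered arrays correlated at 0.52, 0.34 and 0.07 in KMS-34 and at -0.02, 0.12 and 0.02 in KMS-11, so the numbers were not taken as pairs. With the replicate block the counts of members were 1 in KMS-34/Cfz (MAFF at 0.31, adjusted p = 0.017), 0 in KMS-11/Cfz, 0 in the interaction, 1 in the mean of both lines and 7 between the parental lines, as without it. Among the named genes the block changed 1 call, that of CBR3 in KMS-11/Cfz, which it gained at 0.51 (adjusted p = 0.033).

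Signs changed in KMS-34/Cfz for BACH1 (-0.0022 with array weights, -0.046 with the median of probe sets), MAFG (-0.036 with the probe set of largest variance), GCLM (0.078 with it), OSGIN1 (0.028 with array weights) and PSMC2 (-1.9e-04 with the median of probe sets). In the interaction they changed with the probe set of largest variance for NFE2L2 (0.063) and BACH1 (0.19), and with the median of probe sets for NFE2L1 (0.0094) and NFE2L2 (0.023). NFE2L2 was at -0.075 between the parental lines with the probe set that also names CSNK2A1, and FBXW7 at -0.0064 in KMS-11/Cfz without the 3 arrays. Leaving out 1 array gave both signs in KMS-34/Cfz for MAFG (-0.038 to 0.057), NFE2L3 (-0.034 to 0.20), OSGIN1 (-0.21 to 0.014), UFD1 (-0.046 to 0.051) and GCLM (-0.17 to 0.029), in KMS-11/Cfz for FBXW7 (-0.0064 to 0.093), in the interaction for NFE2L1 (-0.060 to 0.010), NFE2L2 (-0.055 to 0.024), BACH1 (-0.084 to 0.045) and CBR3 (-0.074 to 0.27), and in the mean of both lines for NFE2L3 (-0.040 to 0.079).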
